A study of Mus musculus with 8 samples.

Results

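The Elovl elongases and the enzymes that complete the elongation cycle were followed in OT-I T cells, CD8+ T cells that all share a transgenic receptor for an ovalbumin peptide. Members were 10 of the 56805 gene symbols in the count table, chosen by symbol: the elongases Elovl1, Elovl4, Elovl5, Elovl6 and Elovl7, the ketoacyl-CoA reductase Hsd17b12, the dehydratases Hacd1, Hacd2 and Hacd3, and the enoyl-CoA reductase Tecr. The T cells came from OT-I:Rosa26-Cas9 mice, so that all groups carried Cas9. They were activated in vitro with CD3/CD28 beads, then expanded with IL-2, IL-7 and IL-15, and transduced with lentivirus, which brought in either a control guide with no target (sgNT) or one directed at Elovl1 (sgElovl1). The vector also carries CD90.1 as a reporter, on which cells were sorted 3 days after transduction. The sort selects for the vector and not for the edit, so that a sgElovl1 population may hold unedited cells. Per the methods, T cells were taken from young adult mice of both sexes, and the labels give no age or sex for a library.

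The labels name 8 libraries, from 2 experiments that each had 2 sgNT and 2 sgElovl1 replicates. In the table analysed, the authors had summed the 2 replicates of a group within an experiment, described in their methods as mice, so that each gene had 4 values, 1 per group and experiment. Experiment 1 gave 63623476 counts for sgNT and 51621372 for sgElovl1, and experiment 2 gave 49068952 and 57341720. All 9 markers checked for CD8 T cells were present, with a summed level of 5720 to 6029 CPM per column (CPM, counts scaled to a common total after TMM normalisation). They were Cd8a and Cd8b1 and, not particular to CD8 T cells, Cd3d, Cd3e, Cd3g, Cd2, Lck, Trac and Thy1. Thy1 encodes CD90, so that its reads could include those of the CD90.1 reporter, which was not tested. Of 14 markers of other cells, 3 were at 0 in every column (Ms4a1, Ncr1 and Hbb-bs), and Cd4 did not exceed 0.114 CPM. The summed level of these 14 was 16.8 (sgNT) and 20.6 (sgElovl1) CPM in experiment 1 and 25.9 (sgNT) and 28.7 (sgElovl1) CPM in experiment 2. Foxp3 and Cd68 made up most of it, at 4.28 to 10.6 CPM and 8.37 to 11.1 CPM.

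Fatty acids are lengthened at the endoplasmic reticulum by a cycle of 4 reactions that adds a pair of carbons per turn, taken from malonyl-CoA. An ELOVL elongase carries out the condensation, the step that sets the rate and the choice of substrate, and 3 partner enzymes shared by all elongases then reduce, dehydrate and again reduce the product. Very long-chain fatty acids made in this way are built into ceramides, sphingolipids and phospholipids of membranes, and the elongases of the family divide the work by the length and saturation of the chain.

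The guides against Elovl1 in the study's single-cell (CROP-seq) library show where in the gene Cas9 could be directed, and they are printed for that reason. Neither the labels, the methods nor the list of sequences in the supplement ties a guide sequence to the vector of these RNA libraries. Each is written 5′ to 3′ in lower case, with the adjoining bases in capitals, which match the PAM, the NGG motif that Cas9 requires. These adjoining bases were read from transcript sequence of Elovl1 and were not checked against the genome.
Elovl1_gRNA1: ggctattggaaaagtctatgGGG
Elovl1_gRNA2: gggcagacaatccatagtagAGG
Elovl1_gRNA3: tccaaagctaccctctgatgGGG
The positions come from a match to the GENCODE M21 annotation of GRCm38, an older build than the GRCm39 of the counts, and cover the 20 bases without the PAM. All 3 lie in coding sequence of Elovl1 on chromosome 4. In the transcript Elovl1-201, with 8 exons and 837 coding bases, gRNA3 matched the plus strand in exon 3 (chr4:118430724-118430743), gRNA1 the minus strand in exon 4 (chr4:118431110-118431129) and gRNA2 the minus strand in exon 7 (chr4:118431655-118431674). The expected cuts fall after 72, 287 and 542 coding bases, in that order. Guides gRNA1 and gRNA2 matched 4 of the 4 coding transcripts of the gene, and gRNA3 matched 3.

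Elovl1, which makes saturated and monounsaturated very long-chain fatty acids, was lower in both sgElovl1 columns. In experiment 1 it stood at 110.5 CPM (TMM-normalised) in sgNT and 61.3 CPM in sgElovl1 cells. In experiment 2 it stood at 93.5 CPM in sgNT and 55.8 CPM in sgElovl1 cells. Both sgElovl1 columns lay below both sgNT columns, and the sgElovl1 mean was 57.4% of the sgNT mean. The log2 fold change was −0.80 (SE 0.07, 95% interval −0.93 to −0.67, adjusted p = 3.8e-28, quasi-likelihood F test of edgeR), with −0.85 in experiment 1 and −0.74 in experiment 2. An exact two-sided permutation test over the 4 columns gave p = 0.333, the smallest that 2 columns against 2 allow. With any 1 of the 4 columns left out, the experiment term could not be kept, and the fold change lay between −0.89 and −0.68 with an adjusted p of 1.00. Without the experiment term on all 4 columns it was −0.80, also with an adjusted p of 1.00. Transcripts with a small insertion or deletion are still counted, so that this level does not measure the share of edited alleles. In a bulk population, fewer cells that express a gene and less RNA per cell cannot be told apart.

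**Figure D1:**
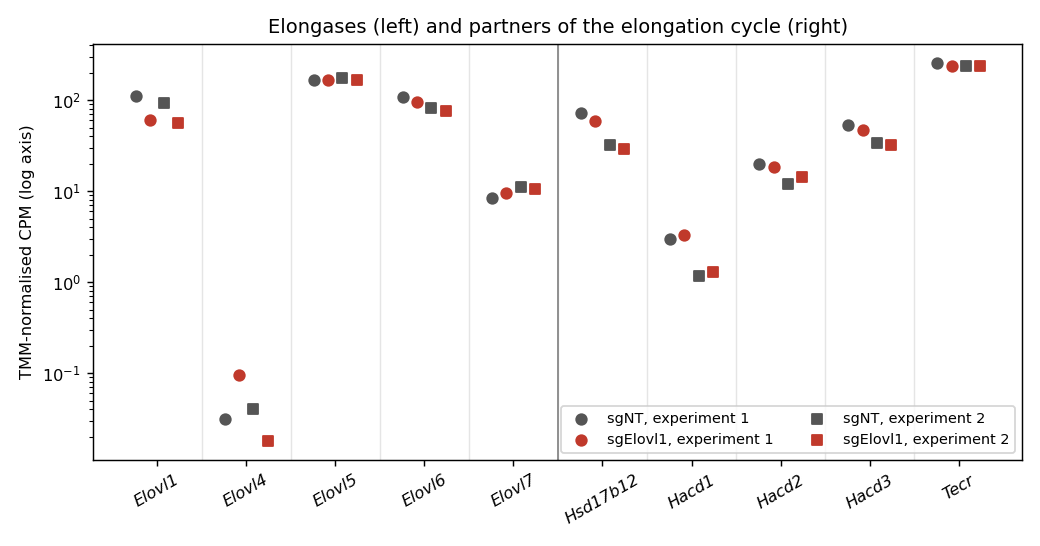
TMM-normalised CPM on a log axis for the 10 members in each of the 4 columns, with elongases to the left of the vertical line and their partners to the right. Grey marks sgNT and red sgElovl1, circles experiment 1 and squares experiment 2. Elovl1 falls from 110.5 to 61.3 and from 93.5 to 55.8 CPM. Hsd17b12, Hacd1, Hacd2 and Hacd3 part by experiment, as do Elovl5, Elovl6, Elovl7 and, narrowly, Tecr. Such a parting was common, at 38.4% of all genes downward and 37.4% upward in experiment 2.

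Of the 9 members tested, 1 passed the threshold of an adjusted p of 0.05 between sgElovl1 and sgNT, against 1.2% of all 16006 genes tested (0.437% lower and 0.762% higher). Elovl1 was also the 1 member whose columns did not overlap between the groups, which held for 6.85% of all genes downward and 5.77% upward. Elovl4 was not tested because it did not pass the filter on low counts. The median log2 fold change over the 9 was −0.05, beside −0.01 over all genes. Lower in both experiments were 5 members (30.1% of all genes), higher in both 1 (25.6%), and in opposite directions 3 (44.1%).

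The question raised by the other elongases is whether any of them was higher where Elovl1 was reduced. None of the 3 tested passed in edgeR or limma-voom. DESeq2 also called 0, but it gave no adjusted p for Elovl7. At an unadjusted p under 0.05 in edgeR there was 1, Elovl6, beside 1698 of all 16006 genes tested. Elovl5, which elongates polyunsaturated fatty acids, stood in experiment 1 at 166 CPM in sgNT and 165 CPM in sgElovl1 cells, and in experiment 2 at 175 CPM and 168 CPM. The groups overlapped, and the log2 fold change was −0.04 (SE 0.06, adjusted p = 0.918). Its 95% interval, −0.16 to 0.09, ends at a level 1.06 times that of sgNT cells.

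Elovl6 takes the long-chain products of fatty acid synthase, such as palmitate, as substrates. Its level in experiment 1 was 107 CPM in sgNT and 96.7 CPM in sgElovl1 cells, and in experiment 2 it was 81.8 CPM and 75.8 CPM. Within each experiment the sgElovl1 column was the lower one, but the groups overlapped across experiments. The log2 fold change was −0.13 (SE 0.07, 95% interval −0.26 to −0.0011, adjusted p = 0.464). In the annotation Elovl6 shares its strand with an overlapping gene, Gm43072, so that reads could be divided between them.

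Elovl7, which like Elovl1 acts on saturated and monounsaturated chains, was a low gene at 8.51 CPM in sgNT and 9.60 CPM in sgElovl1 cells of experiment 1. In experiment 2 it was at 11.1 CPM in sgNT and 10.6 CPM in sgElovl1 cells. The sgElovl1 column was thus the higher one in experiment 1 and the lower one in experiment 2, with a log2 fold change of 0.06 (SE 0.13, adjusted p = 0.939). The 95% interval, −0.19 to 0.31, reaches a level 1.24 times that of sgNT.

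Elovl4, which extends chains to the greatest lengths and is known from retina and skin, had 2 counts in sgNT and 5 in sgElovl1 cells of experiment 1, and 2 and 1 in experiment 2. A count of 0 would allow up to 3 counts, which corresponds to 0.0474 to 0.0601 CPM in these columns. Elovl4 was above that range only in sgElovl1 cells of experiment 1, at 0.0950 CPM, and no fold change is given. Outside the 10 members, Elovl2, Elovl3 and Tecrl had no count in any column. Hacd4, the remaining dehydratase of the family, had 29 counts in sgNT and 28 in sgElovl1 cells of experiment 1, and 36 and 44 in experiment 2. Its log2 fold change was 0.18 (adjusted p = 0.965).

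Summed as counts, Elovl5, Elovl6 and Elovl7 together differed by −11.0 CPM between sgElovl1 and sgNT cells of experiment 1, where Elovl1 differed by −49.2 CPM. In experiment 2 the same sum differed by −13.6 CPM and Elovl1 by −37.7 CPM. Divided by the length of the exons (CPM per kb), the 5 elongases together stood at 106.6 in sgNT and 86.8 in sgElovl1 cells of experiment 1, and at 99.6 and 82.7 in experiment 2. Without Elovl1 this sum was at 66.1 and 64.3 CPM per kb in experiment 1 and at 65.3 and 62.2 in experiment 2. Elovl1 made up 38.0% of the elongase level per kb in sgNT and 25.9% in sgElovl1 cells of experiment 1, and 34.4% and 24.8% in experiment 2. The share of Elovl5 was correspondingly larger in sgElovl1 cells, at 54.0% against 44.3% in experiment 1 and 57.8% against 50.02% in experiment 2, without a higher level of Elovl5 itself. These sums and shares were not tested, and they depend on the length chosen. Divided by the whole gene body instead, Elovl1 was the highest elongase in sgNT cells, at a mean of 21.0 CPM per kb. Elovl5 then stood at 2.54, Elovl6 at 0.892 and Elovl7 at 0.137.

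None of the 5 partners passed in edgeR or limma-voom. DESeq2 also called 0, but it gave no adjusted p for Hacd1 and Hacd2. An unadjusted p under 0.05 in edgeR was found for 1 of the 5, beside 1698 of all 16006 genes tested. The 1 partner was Hsd17b12, the reductase of the first step after condensation. It stood at 73.3 CPM in sgNT and 58.9 CPM in sgElovl1 cells of experiment 1, and at 32.2 CPM and 29.3 CPM in experiment 2. The difference between the experiments was wider than that between the groups, and the group columns overlapped. The log2 fold change was −0.23 (SE 0.07, 95% interval −0.37 to −0.09), and its adjusted p of 0.0939 in the edgeR test missed the threshold. By experiment it was −0.32 and −0.13. Over the alternatives the adjusted p ranged from 0.0647 to 1.00.

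The dehydratases Hacd1, Hacd2 and Hacd3 remove water in the following step, and Hacd1 is known above all from muscle. Hacd3, the most abundant of the 3 by level per kb, was at 53.3 CPM in sgNT and 47.0 CPM in sgElovl1 cells of experiment 1 and at 34.01 CPM and 31.9 CPM in experiment 2. Its log2 fold change was −0.14 (SE 0.07, 95% interval −0.28 to 0.01, adjusted p = 0.511). Hacd2 was lower in the sgElovl1 column of experiment 1, at 18.3 CPM against 19.7 CPM in sgNT, and higher in that of experiment 2, at 14.5 CPM against 12.1 CPM. The edgeR fit gave Hacd2 a log2 fold change of 0.07 (SE 0.10, 95% interval −0.13 to 0.27, adjusted p = 0.899).

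Hacd1 was low in all columns, with 190 counts in sgNT and 173 in sgElovl1 cells of experiment 1, and 58 and 71 in experiment 2. As CPM these were 3.00, 3.29, 1.16 and 1.28, so that each sgElovl1 column was slightly above its sgNT column. The interval of its log2 fold change was the widest of the 9, at −0.45 to 0.73 around 0.14 (SE 0.30, adjusted p = 0.939), and reached 1.66 times the sgNT level. Hacd1 shares its strand with 2 overlapping genes in the annotation, D930036K23Rik and Gm37894.

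Tecr, the enoyl-CoA reductase that closes the cycle, was at 257 CPM in sgNT and 237 CPM in sgElovl1 cells of experiment 1. In experiment 2 it was at 236 CPM in sgNT and 237 CPM in sgElovl1 cells. All 4 columns were thus close, with a log2 fold change of −0.05 (SE 0.06, 95% interval −0.18 to 0.07, adjusted p = 0.856). One gene of the annotation, Gm45823, overlaps Tecr on the same strand.

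**Figure D2:**
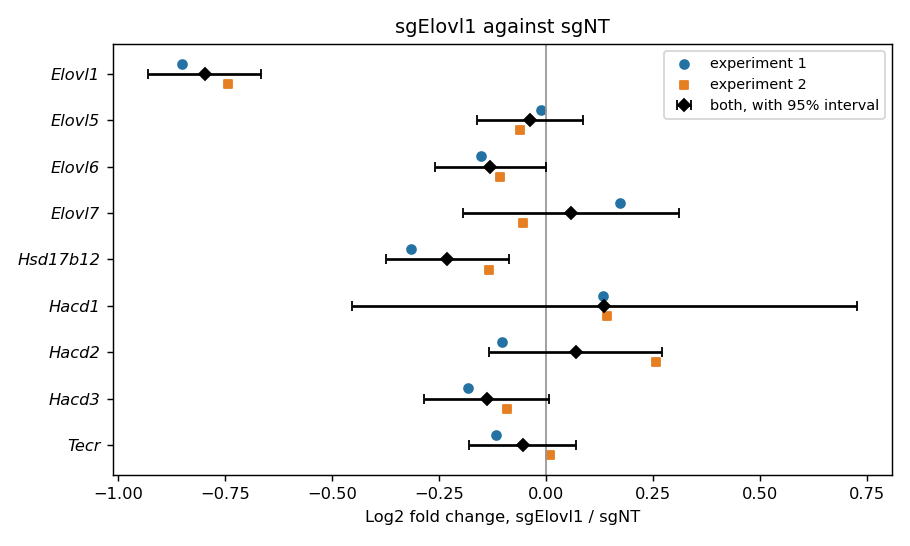
Log2 fold change of sgElovl1 against sgNT for the 9 members tested, in experiment 1 (blue circles), experiment 2 (orange squares) and both together (black diamonds with the 95% interval of the edgeR fit). Elovl1 lies at −0.80, and the 95% intervals of Elovl6 and Hsd17b12 also lie below 0, although neither passed the adjusted threshold.

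Levels between members were compared in sgNT cells as CPM per kb of exon. Tecr came first at 112.5 ± 7.00 (SD, n = 2 columns), followed by Elovl5 at 48.5 ± 1.84 and Elovl1 at 37.4 ± 4.39, with no overlap between their columns. Hsd17b12 at 21.9 ± 12.1, Hacd3 at 16.1 ± 5.03 and Elovl6 at 14.7 ± 2.83 followed. Their ranges overlapped, but within each of the 4 columns Hsd17b12 was the highest of these 3, whereas Hacd3 and Elovl6 changed places between the experiments. Hacd2 at 4.24 ± 1.43, Elovl7 at 2.44 ± 0.448, Hacd1 at 0.982 ± 0.614 and Elovl4 at 0.0118 ± 0.00198 came last, with no overlap between neighbours. In sgElovl1 cells Elovl1 had a mean of 21.5 CPM per kb, below Elovl5 at 47.3. It was below Hsd17b12 in experiment 1, at 22.5 against 24.5, and above it in experiment 2, at 20.5 against 12.2. The authors counted reads over whole genes, introns included, and divided by the length of the whole gene body Elovl1 would come first at 21.0 CPM per kb, before Tecr at 6.80 and Elovl5 at 2.54. With the longest coding transcript as the length, the order of the first 3 was Tecr, Elovl5 and Elovl1, at 193.8, 61.4 and 56.3 CPM per kb.

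Between the 2 experiments, 6 of the 9 members tested were lower in experiment 2 and none higher, where 55.6% of all genes passed the threshold, 29.2% lower and 26.4% higher in experiment 2. What differed between the experiments is not given in the labels. The p-values rest on a dispersion trend common to the genes, not on a gene's own spread between columns or on repeats of an experiment. The 6 comprised 2 elongases, Elovl6 and Elovl1, and 4 of the 5 partners. The columns of 6 members did not overlap downward (38.4% of all genes), although those of Tecr nearly met, and those of 2, Elovl5 and Elovl7, did not overlap upward (37.4%). The median log2 difference over the 9 was −0.37, beside −0.0025 over all genes, and the median of its absolute size was 0.37 against 0.47.

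Hsd17b12 was 2.14 times as high in experiment 1 as in experiment 2 (log2 difference −1.10, SE 0.07, adjusted p = 4.17e-48). It was lower in experiment 2 in both groups, by −1.19 in sgNT and −1.004 in sgElovl1 cells on the log2 scale. Hacd1, at 3.00 and 3.29 CPM in experiment 1 and 1.16 and 1.28 CPM in experiment 2, differed 2.57-fold (−1.36, SE 0.30, adjusted p = 2.36e-05). Hacd3 differed 1.52-fold (−0.60, SE 0.07, adjusted p = 6.17e-15) and Hacd2 1.44-fold (−0.52, SE 0.10, adjusted p = 1.45e-06). Hsd17b12 and all 3 dehydratases among the members were thus lower in experiment 2, and for Hacd2 the drop in sgNT cells was −0.70 against −0.34 in sgElovl1 cells. Hacd4, outside the members and at low counts, had a log2 difference of 0.61 (adjusted p = 0.39 in the edgeR test). Tecr, the last enzyme of the cycle, differed by −0.06 (SE 0.06, 95% interval −0.19 to 0.06, adjusted p = 0.412).

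Among the elongases, Elovl6 was 1.29 times as high in experiment 1 (−0.37, SE 0.07, adjusted p = 7.48e-08). For Elovl1 the difference was 1.14-fold (−0.19, SE 0.07, adjusted p = 0.0106), with columns that overlapped between the experiments. This call was lost in 5 of 12 alternatives, among them upper-quartile scaling (−0.10, adjusted p = 0.166) and the Wald test of DESeq2 (adjusted p = 0.133), and the direction turned without the sgNT column of experiment 1 (0.29, past the threshold in the opposite direction with an adjusted p of 0.00377) or the sgElovl1 column of experiment 2 (0.12, adjusted p = 0.462). Elovl7 had a log2 difference of 0.26 (SE 0.13, adjusted p = 0.0721), which passed the threshold with upper-quartile scaling (0.35, adjusted p = 0.0153), with genes of a mean of at least 5 CPM only (adjusted p = 0.0391) and without the sgElovl1 column of experiment 1 (adjusted p = 0.0346). Elovl5 had one of 0.05 (SE 0.06, adjusted p = 0.508), which was 0.14 with upper-quartile scaling (adjusted p = 0.0439). The summed level of the 14 markers of other cells was also higher in experiment 2, as given above, and its part in these differences was not tested.

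**Figure D3:**
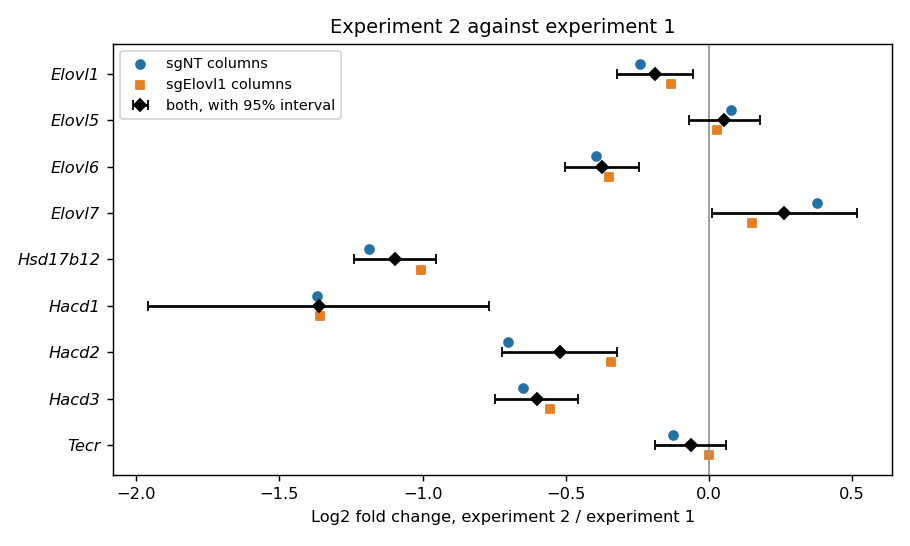
Log2 fold change of experiment 2 against experiment 1 for the 9 members tested, in sgNT columns (blue circles), sgElovl1 columns (orange squares) and both (black diamonds with the 95% interval of the edgeR fit). Hsd17b12 and Hacd1 lie farthest below 0, at −1.10 and −1.36, and Tecr and Elovl5 lie near it.

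**Figure D4:**
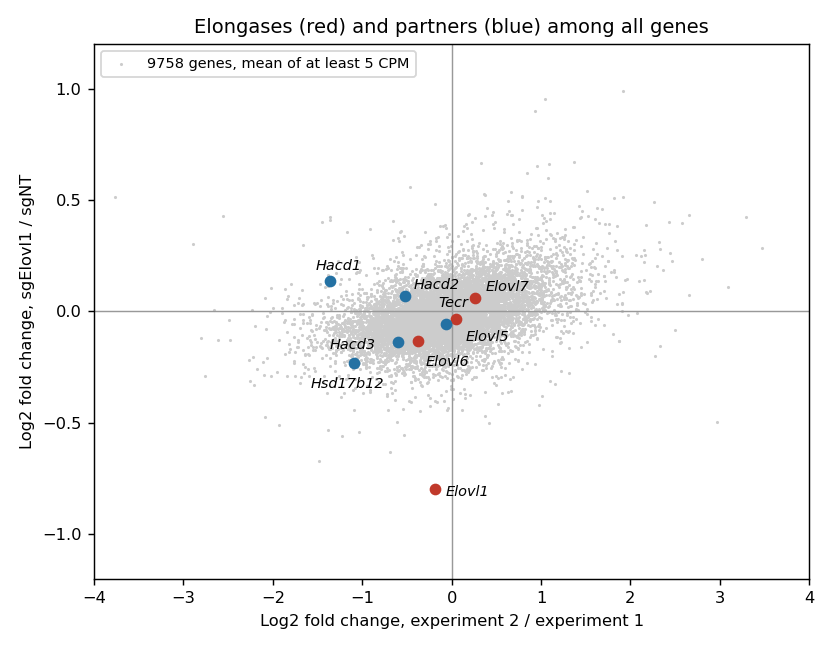
Log2 fold change of sgElovl1 against sgNT (vertical axis) over that of experiment 2 against experiment 1 (horizontal axis), with elongases in red, partners in blue and genes with a mean of at least 5 CPM in grey. Elovl1 is set apart on the vertical axis at −0.80, whereas the partners Hsd17b12 and Hacd1 are set apart on the horizontal axis.

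The genes that supply the cycle were viewed beside the members. In the list for malonyl-CoA and acyl chain supply, 1 of 10 tested genes passed the threshold as lower in sgElovl1 cells and none as higher (0.437% and 0.762% of all genes). It was Scd1, a desaturase that makes monounsaturated chains, at 176 (sgNT) and 154 (sgElovl1) CPM in experiment 1 and 75.3 (sgNT) and 58.9 (sgElovl1) CPM in experiment 2 (log2 fold change −0.27, SE 0.07, adjusted p = 0.00855). Its call did not hold with the Wald test of DESeq2 (adjusted p = 0.255), with genes of a mean of at least 5 CPM only (0.0774) or once a shift parallel to the experiment difference was taken out (−0.15, adjusted p = 0.492). With each column left out in turn its fold change lay between −1.09 and 0.49, and its columns overlapped between the groups. Scd2 followed with −0.18 (adjusted p = 0.241). An unadjusted p under 0.05 in edgeR was found for 5 of the 10, Scd1 and Scd2 among them, beside 1698 of all 16006 genes tested. Those 5 were all lower in sgElovl1 cells of both experiments. Lower in both experiments were 30.1% of all genes. Between experiments, 8 of these 10 genes were lower in experiment 2 and 1 higher (29.2% and 26.4% of all genes), among the lower ones Fasn, the fatty acid synthase (−0.89, adjusted p = 9.44e-42), and Acaca, which makes malonyl-CoA (−0.59, adjusted p = 4.73e-17).

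Of the 11 tested genes for acyl-CoA activation none passed the sgElovl1 comparison in edgeR or limma-voom, and DESeq2 called 0. A gene without an adjusted p in DESeq2 counted as not called, here and in the next lists. The 0 of DESeq2 therefore may not cover every gene of low counts. An unadjusted p under 0.05 in edgeR was found for 4 of the 11, beside 1698 of all 16006 genes tested. The lowest p belonged to Slc27a3 (0.44, adjusted p = 0.278) and Acsbg1 (0.17, adjusted p = 0.334). Ceramide synthases join acyl chains to a sphingoid base, and of the 5 tested 0 passed in any of these tools and 0 had an unadjusted p under 0.05. Cers2, the synthase known for the longest acyl chains in most tissues, had a log2 fold change of 0.11 (adjusted p = 0.564) and Cers6 one of −0.30 (adjusted p = 0.608). The same held for the 6 tested genes of peroxisomal breakdown, with Hsd17b4 at −0.07 (adjusted p = 0.841) and Acaa1a at 0.01 (adjusted p = 0.985). Over these 3 lists, 4 genes were lower and 9 higher in experiment 2, beside 29.2% and 26.4% of all genes.

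Of 11 tested regulators of lipid synthesis, 1 passed the threshold as lower in sgElovl1 cells and none as higher (0.437% and 0.762% of all genes). It was Insig1, which holds the SREBP regulators in the endoplasmic reticulum, at 99.8 (sgNT) and 78.5 (sgElovl1) CPM in experiment 1 and 71.8 (sgNT) and 61.0 (sgElovl1) CPM in experiment 2 (−0.29, SE 0.07, adjusted p = 0.00468). This call was lost with the Wald test of DESeq2 (adjusted p = 0.273), and with each column left out in turn its fold change lay between −0.49 and −0.04, past no threshold. The Insig1 columns overlapped between the groups. Srebf2, the regulator of cholesterol synthesis, stood at −0.10 (adjusted p = 0.629). In experiment 2, 3 of the 11 regulators were lower and 5 higher, beside 29.2% and 26.4% of all genes.

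Of 6 neighbours of Elovl1 on the chromosome, 4 were tested and 1 passed, beside 1.2% of all genes. Cdc20, which activates the anaphase-promoting complex in mitosis, overlaps Elovl1 on the opposite strand in the annotation. It was at 212 (sgNT) and 171 (sgElovl1) CPM in experiment 1 and 195 (sgNT) and 160.4 (sgElovl1) CPM in experiment 2 (−0.29, SE 0.06, adjusted p = 0.00136). Both sgElovl1 columns lay below both sgNT columns, which held for 6.85% of all genes. The authors counted in the stranded mode, which assigns reads of Cdc20 and Elovl1 to different genes, and a part of Elovl1 in this difference was not tested. With each column left out in turn the fold change of Cdc20 lay between −0.34 and −0.23, past no threshold.

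The 3 genes whose pattern over the 4 columns was most like that of Elovl1 were Lpcat1, Gm12596 and Abhd15. Likeness was the root mean square difference of mean-centred log2 CPM among 9756 genes with a mean of at least 5 CPM, and it was 0.196, 0.197 and 0.199. Lpcat1, which remodels phosphatidylcholine, was at 21.96 (sgNT) and 16.95 (sgElovl1) CPM in experiment 1 and 19.2 (sgNT) and 13.7 (sgElovl1) CPM in experiment 2 (−0.43, SE 0.10, adjusted p = 0.00444). Without the experiment term, or with any column left out, Lpcat1 did not pass, nor with genes of a mean of at least 5 CPM only (adjusted p = 0.0821). Gm12596 (−0.45, adjusted p = 0.118) and Abhd15 (−0.43, adjusted p = 0.149) did not pass in the edgeR test. The fold changes of all 3 were smaller than that of Elovl1, and a likeness over 4 columns is a description only.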

How the data were processed

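The authors mapped reads to GRCm39 (mm39) with STAR 2.7.10b. Counting was by featureCounts 2.0.1 under R 4.3.3, reverse-stranded, over gene bodies with their introns (study's methods and submitters' processing notes). The deposited values were raw counts, with the 2 replicates of a group in an experiment summed. Not given in the sources used here were the handling of reads with several alignments and the annotation release. The design assumed separate libraries. On the 4 columns 1 residual degree of freedom was left.

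Genes kept by filterByExpr (16006) went into a TMM-scaled fit of edgeR 4.0.16 (R 4.3.3) that held terms for experiment and group, with quasi-likelihood F tests and Benjamini-Hochberg adjustment over all genes tested (threshold 0.05). The prior degrees of freedom were infinite, so p-values, SEs and 95% intervals rest on a dispersion trend common to the genes. Fold changes of 1 experiment compare 2 columns. Intervals and floors do not cover PCR duplicates. The scripts were tested on simulated data.

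Lengths, overlaps and guide positions came from GENCODE M21 (GRCm38), and no coordinates were carried to GRCm39. Guide sequences came from the study's supplementary library. Genes were named by a rule: the members and their families, from each pathway list those past threshold and otherwise the 2 with the lowest p, neighbours of Elovl1 past threshold, and the 3 most like Elovl1. Fasn and Acaca were named after their values were seen. The list of cell type markers is reported without 1 of its genes. Members and lists were chosen with earlier results of these data known.

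Alternatives were other scalings, other filters, DESeq2 1.42.0 (Wald and likelihood-ratio), limma-voom (limma 3.58.1), fits without the second term, and each column left out. Taking out a shift parallel to the experiment difference, and transcript length, were added after seeing the data.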

Additional observations from a re-analysis of the deposited data

Results flagged for a closer look

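Elovl7, Hacd2 and Tecr were singled out because the sgElovl1 column lay on opposite sides of the sgNT column in the 2 experiments. With 1 column per group and experiment the difference between the experiments was not tested, and 44.1% of all genes behaved in this way. On the log2 scale, Hacd2 had a fold change of −0.10 in experiment 1 but 0.26 in experiment 2, a difference of 0.36. For Elovl7 it was 0.17 and −0.05, a difference of −0.23. For Tecr it was −0.12 and 0.01, a difference of 0.13.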

How the results depend on the processing

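The fold change of Elovl1 in sgElovl1 cells held its direction in all 14 alternatives and its call in 9. It did not pass without the experiment term (−0.80, adjusted p = 1.00) or with a column left out (−0.89 to −0.68). The number of genes called between sgElovl1 and sgNT was 192. It was 94 without a filter, 59 with genes of a mean of at least 5 CPM, 24 with the Wald and 23 with the likelihood-ratio test of DESeq2, and 72 once a shift parallel to the experiment difference was taken out. Without the experiment term edgeR called 0 (19 at an unadjusted p under 0.05), and with a column left out 0 to 6 (235 unadjusted where it was 0). The split into higher and lower calls was 122 and 70 with TMM. It was 132 and 44 under the size factors of DESeq2, 182 and 57 under upper-quartile scaling, and 151 and 42 without mitochondrial and the 20 most counted genes.

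A column left out leaves 3 columns and 1 term, so that the difference between experiments enters the fold change. Directions then turned for 8 members, with ranges of −0.078 to 0.028 (Elovl5), −0.32 to 0.074 (Elovl6), −0.13 to 0.28 (Elovl7), −0.84 to 0.45 (Hsd17b12), −0.70 to 0.97 (Hacd1), −0.24 to 0.44 (Hacd2), −0.45 to 0.21 (Hacd3) and −0.093 to 0.0056 (Tecr), and for Scd1 (−1.09 to 0.49). None of these 8 passed the sgElovl1 comparison in any alternative that gave an adjusted p. DESeq2 gave none for Elovl7, Hacd1, Hacd2 and Lpcat1. In the numbers called by DESeq2 within a list, a gene without an adjusted p counted as not called.

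Between experiments, the count of 8896 genes stayed within 6265 to 9207, and the calls of Elovl6, Hsd17b12, Hacd1, Hacd2 and Hacd3 held in every alternative run. With a column left out, Elovl1 ranged from −0.60 to 0.29 and Tecr from −0.12 to 0.0034. Tecr was at 0.020 with upper-quartile factors. Other changes of a call stand beside the result, and their cause was not tested. No paired analysis was possible because each column sums both replicates of an experiment, so that replicate numbers are lost. The experiment term of the fit already pairs the sgNT and sgElovl1 columns of an experiment. For Elovl4, depth allows no fold change.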
